A study of Homo sapiens with 24 samples.

Results

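HepG2 cells given BRD8518 for 24 h were set directly against HepG2 cells given oncostatin M (OSM) for 24 h, with 6 of the 24 arrays of the series. The arrays were chosen by their titles alone, 3 with BRD8518 and 3 with OSM, and 14884 genes were compared. HepG2 is an established cell line from a human liver carcinoma that retains many functions of hepatocytes. BRD8518, a small molecule known here only by its code name, was used at 1 uM, and the cytokine OSM was used at 100 ng/mL. DMSO vehicle arrays of the same time (3) give the level without either agent, and the 3 BRD8518 and 3 OSM arrays at 1 h give the same comparison early on. The spread between arrays was estimated from all 24 arrays of the series together. These also include DMSO arrays at 1 h and 6 h and BRD8518 arrays at 6 h. All of these cells, vehicle included, stood in 0.25% DMSO. Each agent was present at a single dose in a single cell line. Dose was therefore not matched between them in any sense, and the differences below belong to these doses.

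The title of the series speaks of agents that induce TRIB1, which encodes a pseudokinase that brings other proteins to the ubiquitin ligase COP1 and is linked to plasma lipids through the liver. Comparing BRD8518 with OSM asks which genes they leave at different levels. As background, OSM binds the shared receptor chain gp130 together with OSMR or LIFR, and the JAK kinases bound to these chains then activate STAT3 and, in parallel, the MAP kinase cascade. STAT3 drives the hepatic acute phase response, the release of plasma proteins such as haptoglobin and fibrinogen, and also its own inhibitor SOCS3. MAP kinase signals reach immediate-early genes such as EGR1 through the serum response factor SRF, and dual-specificity phosphatases (DUSPs) switch the kinases off again.

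Levels are log2 values as deposited. A difference is the BRD8518 mean minus the OSM mean on that scale, given with its standard error (SE), so 1 unit is a 2-fold difference and a positive value means higher with BRD8518. "Higher" and "lower" below mean that the gene passed an adjusted p under 0.05 (limma, Benjamini-Hochberg over all genes). Nothing in the labels says that arrays of a group came from separate cultures, so p values measure spread between arrays that may be technical only. The number of arrays limits the precision, and the median SE of a difference was 0.11. Hepatocyte transcripts were present at high values in all groups. Albumin (ALB), for example, averaged 12.20 in BRD8518 arrays, 12.16 in OSM arrays and 12.38 in DMSO arrays.

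At 24 h, 3458 genes differed between BRD8518 and OSM, 23.2% of those tested. BRD8518 was higher for 1623 genes (10.9%) and lower for 1835 (12.3%). Those shares are the background for the counts of each gene list below. The lists were chosen with earlier results of these data known, so a count above these shares is a description and not a test. At an unadjusted p under 0.05, 4764 genes (32%) differed. All 3 BRD8518 arrays lay above all 3 OSM arrays for 20% of genes and below them for 23.4%. The median difference over all genes was -0.02. At least 2-fold differences were fewer (2.15%), with 192 genes higher (1.29%) and 128 lower (0.86%) with BRD8518. Differences were thus common but mostly small, and the upward side held more of the large ones.

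The DMSO levels, which are no part of this difference, were more often nearer to OSM than to BRD8518. Over all genes past the threshold the DMSO mean was nearer to the OSM mean for 84.1% of the higher and 79.9% of the lower genes, and lay between both treatments for 47.7% and 44.4%. The shares stood further apart among the genes with large differences. Among the 192 genes at least 2-fold higher with BRD8518, the DMSO mean was nearer to the OSM mean for 187 (97.4%) and nearer to the BRD8518 mean for 5. For 114 of those 192 genes (59.4%) the DMSO mean lay below both treatments, and for 77 (40.1%) between them. Among the 128 at least 2-fold lower, it was nearer to OSM for 81 (63.3%) and nearer to BRD8518 for 47 (36.7%). For 83 of those 128 genes the DMSO mean lay between both treatments, and for 29 it lay above both. All 3 DMSO arrays fell between the arrays of both treatments for 42 of the 192 higher genes (21.9%) and 56 of the 128 lower ones (43.8%). Over all genes past the threshold, this held for 14% of the higher and 13.8% of the lower genes. A wider gap between treatments leaves more room for DMSO arrays to fall between. Where values against DMSO are given below, both treatments were compared with the same 3 DMSO arrays, so their 2 values share that error. With BRD8518 27.7% of genes passed against DMSO, and with OSM 10.3%.

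**Figure D1:**
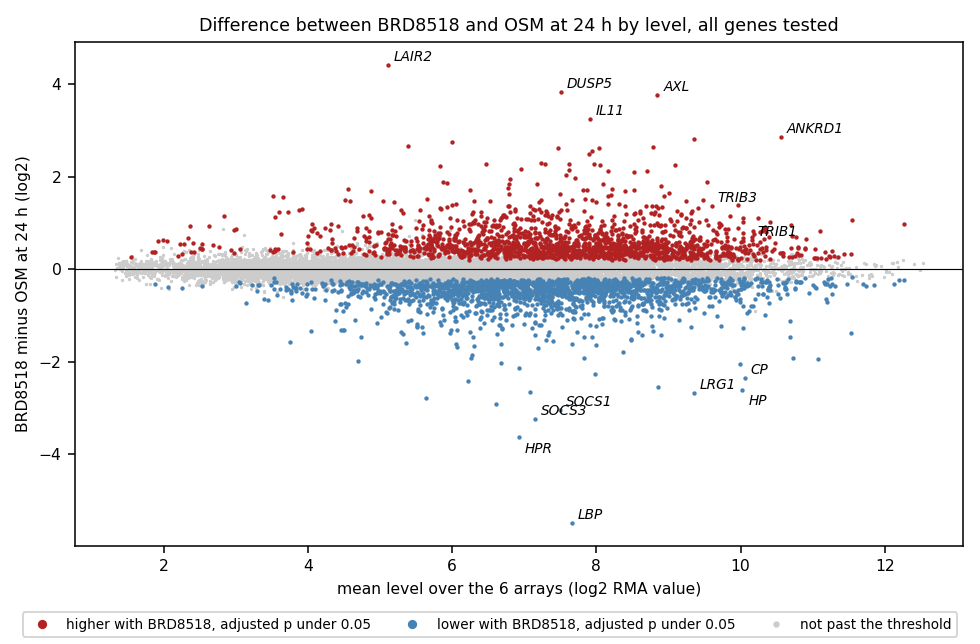
Difference between BRD8518 and OSM at 24 h (log2, vertical axis) against the mean level over the 6 arrays (log2 RMA value, horizontal axis), 1 point per gene for 14884 genes. The 1623 genes higher with BRD8518 are red and the 1835 lower are blue. LAIR2 (4.40) is the highest point and LBP (-5.48) the lowest.

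The Tribbles genes themselves differed. TRIB1 stood at 10.50, 10.51 and 10.42 in BRD8518 arrays, against 9.72, 9.92 and 9.88 in OSM arrays and 9.17, 9.31 and 9.34 in DMSO arrays. The BRD8518 arrays were all the highest, the DMSO arrays all the lowest, and no group overlapped another. The difference was 0.64 ± 0.08 (SE, n = 3 arrays each; limma, adjusted p = 3.4e-06), a 1.56-fold higher level with BRD8518. TRIB3, a pseudokinase induced in amino acid and endoplasmic reticulum stress, read 10.22, 10.35 and 10.28 with BRD8518, against 8.83, 8.97 and 8.96 with OSM and 8.93, 8.90 and 9.31 with DMSO. Here the OSM and DMSO arrays overlapped and the BRD8518 arrays lay apart. Its difference was 1.36 ± 0.09 (limma, adjusted p = 1.7e-10). TRIB2 did not pass, at -0.11 ± 0.11 (limma, adjusted p = 0.56).

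The largest differences upward were in LAIR2, DUSP5 and AXL. LAIR2 encodes a soluble receptor that binds collagen. It read 7.15, 7.44 and 7.34 with BRD8518, against 2.57, 3.03 and 3.12 with OSM and 2.56, 2.76 and 3.21 with DMSO. OSM and DMSO arrays overlapped at the bottom of the array's range, where RMA gives no detection call. The difference was 4.40 ± 0.23 (limma, adjusted p = 2.0e-12), a size that depends on what RMA assigns to such low values. DUSP5, the nuclear phosphatase of ERK, read 9.43, 9.35 and 9.45 with BRD8518, against 5.48, 5.64 and 5.66 with OSM and 5.44, 5.36 and 5.46 with DMSO. Only the BRD8518 arrays were high. The difference of 3.82 ± 0.13 (limma, adjusted p = 1.6e-15) came from the brighter of its 2 probe sets, and the other gave 0.72. AXL, a receptor tyrosine kinase whose ligand is GAS6, read 10.78, 10.71 and 10.68 with BRD8518, against 6.92, 6.95 and 7.04 with OSM and 7.10, 7.28 and 7.52 with DMSO. Every OSM array was below every DMSO array, and the BRD8518 arrays were far above both. The difference was 3.76 ± 0.10 (limma, adjusted p = 1.8e-17).

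The rest of the 15 largest upward differences ran from 2.27 to 3.25. They include ANKRD1, a cardiac-type ankyrin repeat protein and a textbook YAP target (2.86 ± 0.09), IL18, an inflammasome cytokine (2.75 ± 0.13), and the scaffold protein of protein kinase A, AKAP12 (2.62 ± 0.10). GPAT3, an acyltransferase of glycerolipid synthesis (2.55 ± 0.10), HKDC1, a hexokinase (2.61 ± 0.12), and CDA, cytidine deaminase (2.28 ± 0.10), were also among them. For ANKRD1 the OSM arrays (9.01, 9.20 and 9.17) lay below the DMSO arrays (9.63, 9.74 and 9.89), with BRD8518 arrays at 11.97, 12.03 and 11.95. The long non-coding RNA UCA1 had 2 probe sets, 2.65 ± 0.26 for the brighter and 1.21 for the other. TMC7, TMEM156 and EMP3, 3 membrane protein genes, differed by 2.80 ± 0.14, 2.67 ± 0.13 and 2.27 ± 0.11.

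The largest difference of all was downward. LBP encodes lipopolysaccharide-binding protein, a secreted acute phase protein. It read 4.89, 4.93 and 4.94 with BRD8518, against 10.23, 10.50 and 10.47 with OSM and 4.54, 4.88 and 4.70 with DMSO. OSM arrays stood far above the rest, and BRD8518 arrays lay just above the DMSO arrays. The difference was -5.48 ± 0.13 (limma, adjusted p = 7.9e-18), and the OSM level was 44.6-fold that with BRD8518. LBP with BRD8518 differed from DMSO by 0.22, which did not pass (limma, adjusted p = 0.26).

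Several other large downward differences lay on both sides of DMSO. HPR, haptoglobin-related protein, read 5.03, 5.17 and 5.11 with BRD8518, against 8.95, 8.45 and 8.81 with OSM and 7.50, 7.27 and 7.50 with DMSO. Its DMSO arrays lay between the arrays of both treatments, and the difference was -3.63 ± 0.14 (limma, adjusted p = 2.9e-14). Its sequence is close to that of HP, so each probe set may read both transcripts. GPR119, a lipid-sensing receptor, read 5.26, 5.27 and 4.94 with BRD8518, against 8.42, 7.80 and 7.99 with OSM and 7.51, 7.04 and 7.19 with DMSO. The 3 groups did not overlap here either, and the difference was -2.91 ± 0.18 (limma, adjusted p = 2.7e-11). CHST15, a chondroitin sulfate sulfotransferase, differed by -2.55 ± 0.08. It fell by 1.12 with BRD8518 against DMSO and stood 1.44 higher with OSM (limma, adjusted p = 6.8e-10 and 5.3e-11). LRG1, a secreted leucine-rich glycoprotein of the acute phase, differed by -2.67 ± 0.09.

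Elsewhere the downward difference came mostly from one agent. The homeobox factor HOXD1 read 5.60, 6.09 and 5.57 with BRD8518, against 8.78, 8.16 and 8.30 with OSM and 8.42, 7.99 and 8.08 with DMSO. OSM and DMSO arrays overlapped, and the difference was -2.66 ± 0.15 (limma, adjusted p = 1.3e-11). LYVE1, a hyaluronan receptor best known from lymphatic endothelium, showed the opposite arrangement, at 6.89, 6.93 and 6.73 with BRD8518, against 9.13, 9.11 and 9.14 with OSM and 6.59, 6.25 and 6.45 with DMSO. Only the OSM arrays were high, and the difference was -2.28 ± 0.16 (limma, adjusted p = 3.0e-10). The other 4 endothelial markers measured (PECAM1, VWF, KDR and STAB2) averaged 4.14 to 5.42 with BRD8518 and 4.18 to 5.23 with OSM, and none passed.

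**Figure D2:**
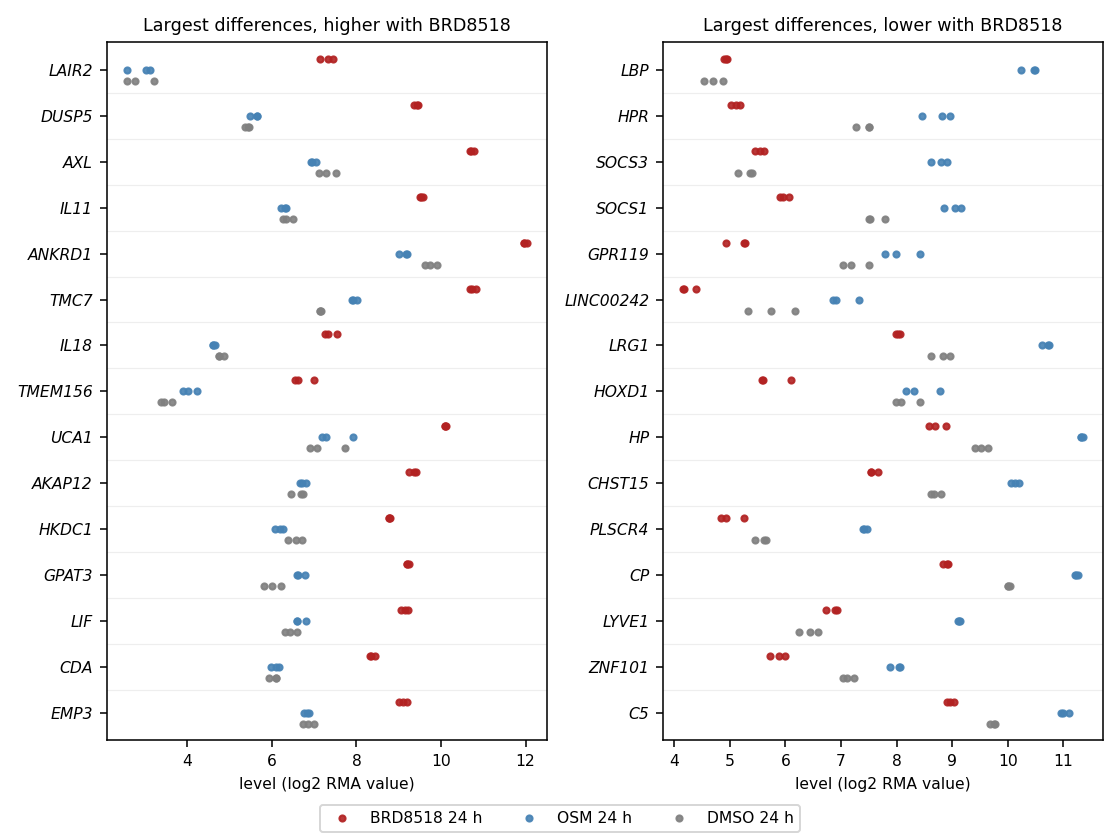
Level in every 24 h array (log2 RMA value, horizontal axis) of the 15 genes with the largest difference in each direction, with BRD8518 in red, OSM in blue and DMSO in grey, 1 point per array. On the left, BRD8518 points lie alone at high values while OSM and DMSO points lie below them. On the right, DMSO points of HPR, SOCS1, GPR119, HP and CP lie between both treatments, and those of LBP and SOCS3 lie beside BRD8518.

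SOCS3 and SOCS1, feedback inhibitors of the JAK-STAT pathway, were lower with BRD8518. SOCS3, which blocks gp130-bound JAKs, read 5.55, 5.45 and 5.62 with BRD8518, against 8.90, 8.79 and 8.62 with OSM and 5.15 to 5.40 with DMSO. It was high in the OSM arrays alone, with a difference of -3.23 ± 0.14 (limma, adjusted p = 7.1e-14) that was -1.97 on its other probe set. SOCS1, a relative that inhibits JAKs directly, read 5.95, 6.07 and 5.90 with BRD8518, against 9.15, 8.85 and 9.06 with OSM and 7.51, 7.52 and 7.79 with DMSO. Unlike SOCS3, its BRD8518 arrays lay below all DMSO arrays. The difference was -3.05 ± 0.13 (limma, adjusted p = 1.1e-13). Of the other family members in the list, CISH was lower as well (-0.44 ± 0.09), and SOCS2 (0.16), SOCS4 (0.05) and SOCS5 (0.02) did not pass. SOCS6 (0.95 ± 0.13) and SOCS7 (0.61 ± 0.09), which are outside the list and were looked up after the other values were seen, were higher.

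The wider list of JAK-STAT feedback genes and STAT3 targets went both ways. Of 23 measured, 7 were higher with BRD8518, 11 were lower and 5 did not pass, with a median of -0.02, the same as over all genes. Besides both SOCS genes, the lower members included the AP-1 subunit JUNB (-1.43 ± 0.12) and the kinase JAK3 (-1.17 ± 0.10). The higher members included JAK2, a kinase that gp130 itself uses (1.30 ± 0.15), the survival kinase PIM1 (1.07 ± 0.12), the anti-apoptotic gene MCL1 (0.65 ± 0.13) and MYC (0.61 ± 0.06). JAK2 read 7.58, 7.53 and 7.46 with BRD8518, against 6.38, 6.25 and 6.04 with OSM and 6.33, 6.25 and 6.24 with DMSO. Only the BRD8518 arrays were high for this kinase. PIM1 was ordered BRD8518 (9.97 to 10.10), OSM (8.91 to 9.03) and DMSO (8.11 to 8.26) from high to low with no overlap. JUNB lay above DMSO with both agents, by 0.80 with BRD8518 and 2.24 with OSM.

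Ligands and receptors of the gp130 family were also split between the agents. IL11, a gp130 cytokine, read 9.51, 9.53 and 9.57 with BRD8518, against 6.33, 6.21 and 6.32 with OSM and 6.34, 6.27 and 6.51 with DMSO. LIF, another ligand that signals through gp130 and LIFR, read 9.21, 9.16 and 9.06 with BRD8518, against 6.59, 6.80 and 6.60 with OSM and 6.30, 6.44 and 6.59 with DMSO. For both cytokines OSM and DMSO arrays were close together and BRD8518 arrays lay far above. The differences were 3.25 ± 0.15 for IL11 (limma, adjusted p = 2.6e-13) and 2.48 ± 0.10 for LIF (limma, adjusted p = 3.4e-14). IL6R, the receptor of interleukin 6, was higher by 1.37 ± 0.09, with BRD8518 arrays at 9.48, 9.45 and 9.45, OSM arrays at 8.15, 8.05 and 8.07, and DMSO arrays at 7.20, 7.14 and 7.31. All 3 groups were separate for IL6R.

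The receptors of OSM itself went in opposite directions. OSMR read 9.36, 9.42 and 9.40 with BRD8518, against 10.63, 10.72 and 10.65 with OSM and 9.51, 9.45 and 9.43 with DMSO. It was high with OSM alone, and the difference was -1.27 ± 0.07 (limma, adjusted p = 3.2e-12). LIFR read 7.71, 7.60 and 7.75 with BRD8518, against 6.50, 6.47 and 6.47 with OSM and 7.55, 7.58 and 7.49 with DMSO. Here the OSM arrays were the low ones, and the difference was 1.20 ± 0.12 (limma, adjusted p = 1.2e-07). In the list of 10 gp130 family genes measured, these were the 4 higher and the 1 lower, and 5 did not pass (median -0.03).

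Acute phase proteins gave the largest median shift of any list with 10 or more measured genes. Of 19 positive acute phase genes measured, those whose plasma proteins increase in inflammation, 14 were lower with BRD8518, 0 were higher and 5 did not pass. Their median difference was -0.88, against -0.02 over all genes. HP, haptoglobin, which binds free haemoglobin, read 8.59, 8.89 and 8.69 with BRD8518, against 11.31, 11.33 and 11.36 with OSM and 9.64, 9.41 and 9.52 with DMSO. CP, the copper-carrying ferroxidase ceruloplasmin, read 8.91, 8.92 and 8.83 with BRD8518, against 11.26, 11.23 and 11.20 with OSM and 10.00, 10.05 and 10.00 with DMSO. For HP and CP alike, the DMSO arrays lay between the treatments without overlap. The differences were -2.61 ± 0.10 for HP (limma, adjusted p = 1.3e-14) and -2.34 ± 0.11 for CP (limma, adjusted p = 5.3e-13).

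All 3 fibrinogen chains, the precursors of fibrin, were ordered in the same way. FGB read 9.66, 9.83 and 9.79 with BRD8518, against 11.79, 11.67 and 11.61 with OSM and 10.25, 10.17 and 10.11 with DMSO. FGA read 10.87, 10.86 and 10.80 with BRD8518, against 12.26, 12.24 and 12.18 with OSM and 11.34, 11.31 and 11.37 with DMSO. In both genes every DMSO array lay above every BRD8518 array and below every OSM array. The differences were -1.93 ± 0.10 for FGB, -1.39 ± 0.06 for FGA and -1.47 ± 0.09 for FGG (limma, adjusted p = 1.7e-12, 2.1e-13 and 3.9e-11). Against DMSO, FGA fell by 0.50 with BRD8518 and rose by 0.89 with OSM (limma, adjusted p = 1.3e-06 and 8.7e-10). The members that did not pass were FN1 (0.12), SAA1 (0.12), ORM1 (-0.14), HAMP (-0.27) and ORM2 (-0.31). Of 8 negative acute phase genes, whose proteins fall in inflammation, transthyretin (TTR) was lower, at -0.29 ± 0.07. FETUB and TF, the other members past the threshold, lost the call when single arrays were left out.

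**Figure D3:**
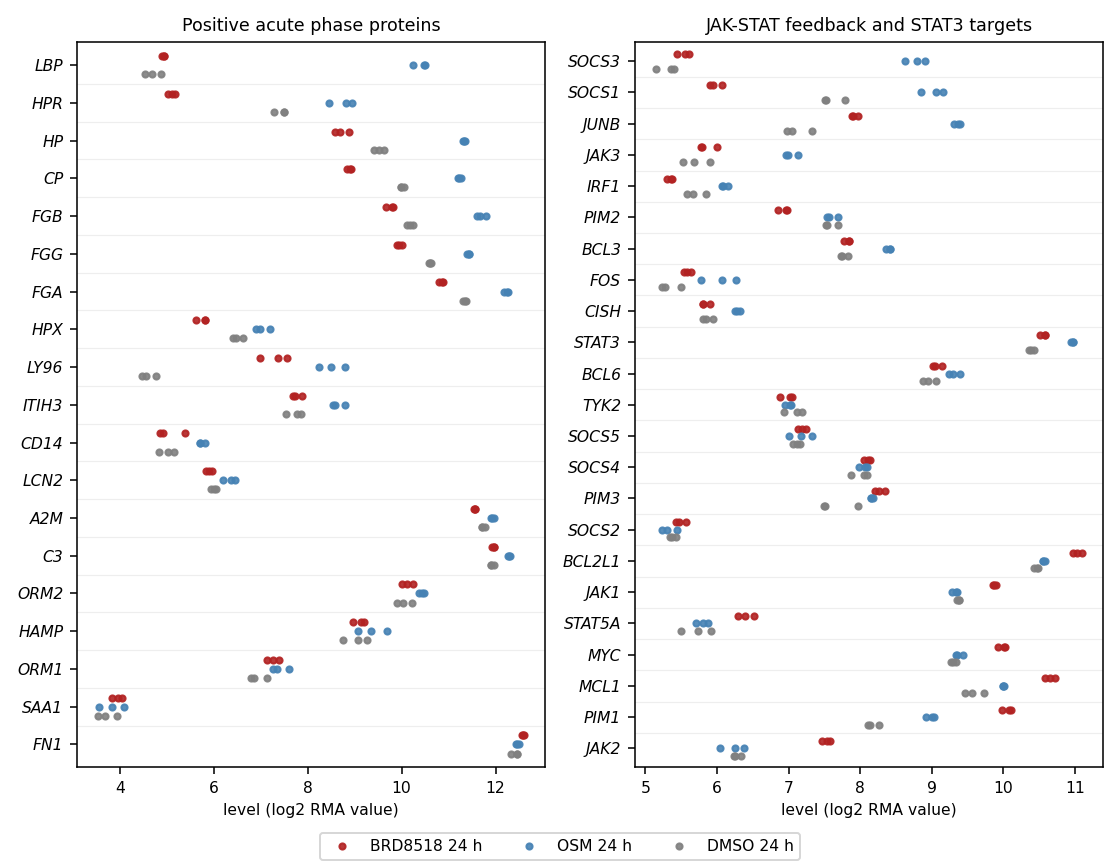
Level in every 24 h array (log2 RMA value, horizontal axis) of the 19 positive acute phase genes measured (left) and the 23 JAK-STAT feedback and STAT3 target genes measured (right), with BRD8518 in red, OSM in blue and DMSO in grey. Blue points lie to the right of red ones in the upper rows of both panels, and red points lie to the right at the foot of the JAK-STAT panel, down to JAK2.

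Complement and clotting genes, many of which hepatocytes secrete, had more lower than higher members. Of 13 complement genes, 8 were lower, 1 was higher and 4 did not pass (median -0.38). C5, the precursor of the anaphylatoxin C5a, read 8.96, 9.03 and 8.91 with BRD8518, against 11.10, 10.99 and 10.95 with OSM and 9.78, 9.75 and 9.68 with DMSO. The DMSO arrays lay between, and the difference was -2.05 ± 0.12 (limma, adjusted p = 8.1e-12). CFI, the protease that inactivates C3b, was lower, at -1.26 ± 0.09, and so were C4A (-0.81 ± 0.11) and C4B (-0.80 ± 0.11), whose near-identical sequences may be read by each other's probe sets. MASP1, a protease of the lectin pathway, was the higher member (0.67 ± 0.09). Of 18 coagulation and fibrinolysis genes, 8 were lower (44.4%), 3 were higher (16.7%) and 7 did not pass (median -0.16). The anticoagulant PROS1, protein S, was lower, at -1.10 ± 0.09, and TFPI2, a protease inhibitor, was higher by 0.84 ± 0.11. TFPI2 values were low, averaging 4.73 with BRD8518, 3.89 with OSM and 3.91 with DMSO. KNG1, also counted as higher (0.45 ± 0.12), gave -0.14 on its other probe set and lost its call when probe sets were averaged.

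Interferon-linked genes had 9 of 17 members lower with BRD8518, 0 higher and 8 not past the threshold (median -0.38). Those 8 were IRF7, USP18, IFIT1, IFIT2, IFIT3, ISG15, ISG20 and IFI44. The IFIT genes and IFI44 averaged 2.17 to 3.54 with BRD8518 and 2.01 to 3.98 with OSM, which are low values. USP18 was below DMSO with both agents, by 1.02 with BRD8518 and 0.87 with OSM. The antiviral membrane protein gene IFITM1 was lower, at -1.53 ± 0.14, with 6.55, 6.35 and 6.71 in BRD8518 arrays, 8.31, 7.93 and 7.95 in OSM arrays and 6.15, 6.10 and 6.24 in DMSO arrays. IFITM2, whose sequence is close to that of IFITM1, was lower too, with 9.16, 9.15 and 9.21 in BRD8518 arrays, 10.20, 10.15 and 10.18 in OSM arrays and 8.55, 8.49 and 8.52 in DMSO arrays. For both, BRD8518 lay between DMSO and OSM. BST2, tetherin, and IFIH1, a sensor of viral RNA, were lower, at -1.06 ± 0.09 and -0.81 ± 0.12, and here BRD8518 arrays were below DMSO. IFIH1 was also lower with OSM than with DMSO, by -0.49 (limma, adjusted p = 0.0085).

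MAP kinase target and feedback genes were mostly higher with BRD8518. Of 33 measured, 18 were higher, 2 were lower and 13 did not pass, with a median of 0.35. The lower ones were JUNB and FOS, and the FOS call was lost in several leave-one-out fits. EGR1, the zinc-finger factor described above, read 10.66, 10.55 and 10.53 with BRD8518, against 9.30, 9.53 and 9.61 with OSM and 7.77, 8.19 and 8.34 with DMSO. Both agents kept it above DMSO at 24 h, by 2.48 with BRD8518 and 1.38 with OSM, and no arrays overlapped. The difference was 1.10 ± 0.13 (limma, adjusted p = 1.1e-06), and 0.31 on its other probe set. DUSP8 and DUSP1, phosphatases that act on JNK and p38, were higher by 2.13 ± 0.10 and 1.34 ± 0.07, and JUN by 1.71 ± 0.08. For DUSP8 the OSM arrays lay below all DMSO arrays and for JUN they overlapped them, while DUSP1 was ordered BRD8518, OSM and DMSO from high to low (9.62, 9.59 and 9.53, then 8.33, 8.20 and 8.21, then 7.68, 7.61 and 7.76).

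Growth factor receptors upstream of this cascade differed too. EGFR, the epidermal growth factor receptor, read 8.69, 8.75 and 8.82 with BRD8518, against 6.56, 6.50 and 6.42 with OSM and 6.92, 6.82 and 6.82 with DMSO. OSM arrays lay below all DMSO arrays and BRD8518 arrays well above them. The difference was 2.26 ± 0.11 (limma, adjusted p = 1.0e-12). Its ligand EREG, epiregulin, was higher by 1.87 ± 0.14 and the hepatocyte growth factor receptor MET by 0.64 ± 0.11. Of 11 genes in this list, which also counts AXL, 5 were higher, 1 was lower and 5 did not pass (median 0.08). ERBB3, a partner receptor with little kinase activity, was the lower one (-0.24 ± 0.06).

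Targets of SRF and of YAP, factors tied to actin and cell tension, had 12 of 18 members higher with BRD8518, 0 lower and 6 not past the threshold (median 0.30). AXL and ANKRD1 stand in this list, followed by the keratin-associated KRTAP2-3 (2.17 ± 0.22), whose family members are much alike, and the actin-binding TAGLN (1.97 ± 0.11). TAGLN read 8.43, 8.89 and 8.74 with BRD8518, against 6.80, 6.70 and 6.66 with OSM and 6.96, 6.93 and 7.31 with DMSO. Again the BRD8518 arrays alone were high.

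Of 26 genes for secreted signals, 11 were higher (42.3%), 1 was lower (3.85%) and 14 did not pass (median 0.20). Besides IL11 and LIF, the higher members included PDGFA, a platelet-derived growth factor chain (1.10 ± 0.13), and CSF1, the macrophage growth factor (1.04 ± 0.07). EPO, erythropoietin, was the lower one, at 6.00, 6.04 and 5.58 with BRD8518, against 7.53, 7.29 and 7.67 with OSM and 8.20, 8.21 and 8.30 with DMSO. Both agents left it below DMSO without overlap, BRD8518 further, and the difference was -1.63 ± 0.11 (limma, adjusted p = 3.5e-10). Among 17 NF-kB and chemokine genes, 3 were higher (17.6%), 2 were lower (11.8%) and 12 did not pass (median 0.06). That is near the 10.9% and 12.3% of all genes. The neutrophil chemokine CXCL8 was higher by 1.46 ± 0.12 and IL18 is given above. ICAM1, a leukocyte adhesion receptor, was lower, at -0.64 ± 0.07, although it was above DMSO with both agents.

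The lists above are drawn with all the others in the plot of gene lists, which ranks them by their median difference. Lists share members (AXL, JUNB, FOS, MYC and EPO each stand in at least 2), so their counts are not independent.

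**Figure D4:**
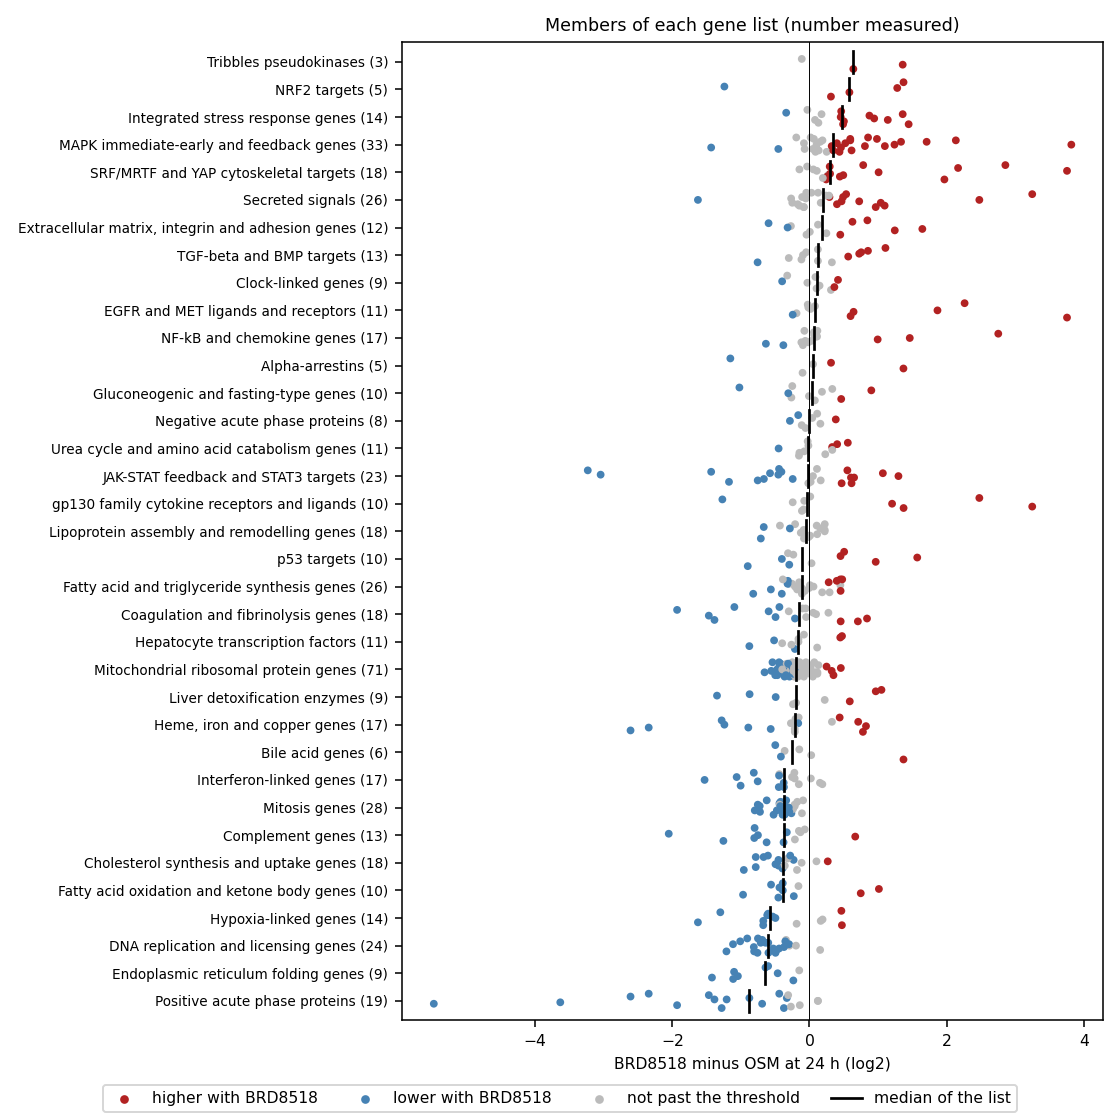
Difference between BRD8518 and OSM at 24 h (log2, horizontal axis) of each measured member of every list with measured genes, cell type markers apart, with the number measured in brackets, ordered by the list's median (black bar). Red points are higher with BRD8518, blue points are lower and grey points did not pass the threshold. Medians run from 0.64 for the 3 Tribbles genes to -0.88 for the 19 positive acute phase genes.

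The start regions of a few of these genes are printed to show the letters that STAT and SRF are known to read. Windows of 250 bases before and 50 bases after the gene start, from RefSeq on GRCh38.p14, were searched on both strands for TTCNNNGAA and TTCCNGGAA (STAT; the second lies within the first), the CArG box (SRF), TGANTCA (AP-1) and TGACGTCA (the cyclic AMP response element). EGR1 stands for genes driven by SRF, and AKAP12 was added because it is the gene with the largest upward difference whose window holds a CArG box. LRG1 and FGA were added as acute phase genes whose windows hold TTCCNGGAA, and these 3 were chosen after their values were seen. Capitals mark CArG boxes in EGR1 and AKAP12, the TTCNNNGAA match at the far end of the EGR1 window, and TTCCNGGAA in LRG1 and FGA. Each window is written 5′ to 3′ on the gene's strand.
EGR1 (chr5:138465229-138465528, plus strand): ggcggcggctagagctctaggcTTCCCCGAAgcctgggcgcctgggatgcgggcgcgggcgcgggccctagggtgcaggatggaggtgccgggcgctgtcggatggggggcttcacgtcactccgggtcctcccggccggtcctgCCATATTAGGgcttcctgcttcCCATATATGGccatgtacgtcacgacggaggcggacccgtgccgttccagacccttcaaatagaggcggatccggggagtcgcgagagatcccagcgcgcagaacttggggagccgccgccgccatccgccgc
AKAP12 (chr6:151239717-151240016, plus strand): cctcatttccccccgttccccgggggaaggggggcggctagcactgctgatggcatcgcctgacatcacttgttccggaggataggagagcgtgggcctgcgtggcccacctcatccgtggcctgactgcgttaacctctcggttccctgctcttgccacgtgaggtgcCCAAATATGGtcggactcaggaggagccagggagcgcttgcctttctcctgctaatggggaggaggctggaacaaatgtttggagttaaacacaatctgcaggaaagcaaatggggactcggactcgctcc
LRG1 (chr19:4539987-4540286, minus strand): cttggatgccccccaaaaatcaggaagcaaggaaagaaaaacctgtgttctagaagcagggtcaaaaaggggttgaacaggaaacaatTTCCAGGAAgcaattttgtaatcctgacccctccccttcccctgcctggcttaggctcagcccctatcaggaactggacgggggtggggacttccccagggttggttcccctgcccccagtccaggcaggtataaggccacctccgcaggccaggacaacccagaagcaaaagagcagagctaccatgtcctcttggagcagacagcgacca
FGA (chr4:154590693-154590992, minus strand): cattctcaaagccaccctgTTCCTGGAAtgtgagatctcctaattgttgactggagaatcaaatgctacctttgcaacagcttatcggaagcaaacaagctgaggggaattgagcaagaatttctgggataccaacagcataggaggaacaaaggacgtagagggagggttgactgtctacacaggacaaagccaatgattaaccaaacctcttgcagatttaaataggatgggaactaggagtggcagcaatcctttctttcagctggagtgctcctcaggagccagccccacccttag
The EGR1 window held CArG boxes starting at -105 and -83 from the gene start, and that of AKAP12 held 1 starting at -81. The windows of SOCS3 and AXL, which are not printed, held none of the 5 motifs. SOCS3 had been set as the example of a gene driven by STAT3, and AXL was taken for the size of its difference. Bases outside the windows were not searched, so a motif elsewhere near these genes could not be seen.

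Counted over all genes with a window, TTCCNGGAA stood in 7 of 94 windows (7.45%) of genes at least 2-fold lower with BRD8518, in 4 of 137 (2.92%) of those at least 2-fold higher and in 127 of 10749 (1.18%) of all genes tested. The 7 genes were LRG1, PLSCR4, FGA, DHRS2, NMI, PROS1 and BST2. CArG boxes stood in 5 of 137 windows (3.65%) of the higher genes, 2 of 94 (2.13%) of the lower ones and 132 of 10749 (1.23%) of all tested. The 5 were AKAP12, C9orf72, EGR1, PDGFA and FHL2. TTCNNNGAA stood in 10 of 137 (7.3%), 10 of 94 (10.6%) and 6.74%, TGANTCA in 15 of 137 (10.9%), 4 of 94 (4.26%) and 5.92%, and TGACGTCA in 6 of 137 (4.38%), 1 of 94 (1.06%) and 2.62%, each time for higher, lower and all tested genes. Among all 27305 windows of the table, 1.22% held TTCCNGGAA and 1.29% a CArG box. These are counts of letters, with no test, and most genes of each set had no match.

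Stress pathways were divided as well. Integrated stress response genes, which are translated or transcribed when eIF2 is phosphorylated, had 9 of 14 members higher with BRD8518, 1 lower and 4 not past the threshold (median 0.48). ASNS, asparagine synthetase, read 8.64, 8.84 and 8.67 with BRD8518, against 7.19, 7.30 and 7.32 with OSM and 6.92 to 7.03 with DMSO. The groups did not overlap, and the difference was 1.45 ± 0.09 (limma, adjusted p = 7.9e-11). VLDLR, a lipoprotein receptor, and SESN2, a sensor of leucine, were higher by 1.14 ± 0.10 and 0.94 ± 0.09. PSPH, a serine synthesis enzyme, was the lower member (-0.34 ± 0.09).

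Folding genes of the endoplasmic reticulum went the other way. Of 9 measured, 8 were lower with BRD8518, 0 were higher and 1 did not pass (median -0.64). XBP1, the factor that drives secretory capacity, read 10.11, 10.17 and 10.12 with BRD8518, against 11.36, 11.17 and 11.21 with OSM and 10.78, 10.76 and 10.81 with DMSO. DMSO arrays lay between, and the difference was -1.11 ± 0.08 (limma, adjusted p = 2.9e-10). The folding factors SDF2L1 (-1.42 ± 0.14), MANF (-1.10 ± 0.06) and CRELD2 (-1.04 ± 0.16) were lower with BRD8518 than with DMSO too, while OSM and DMSO differed by 0.15 to 0.19, which did not pass.

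Of 15 NRF2 targets in the list, genes of the response to oxidants, 5 were measured. Of these, 4 were higher and 1 was lower (median 0.58). The sulfiredoxin gene SRXN1 and the thioredoxin reductase gene TXNRD1 were higher by 1.37 ± 0.10 and 1.28 ± 0.07. HMOX1, haem oxygenase, was lower, at 7.01, 6.85 and 6.83 with BRD8518, against 8.24, 8.05 and 8.13 with OSM and 7.98, 7.93 and 8.10 with DMSO. Only the BRD8518 arrays were low, and the difference was -1.24 ± 0.08 (limma, adjusted p = 4.1e-11). Hypoxia-linked genes had 9 of 14 members lower, 2 higher and 3 not past the threshold (median -0.57). Beside EPO, these included the lipid droplet gene HILPDA (-1.30 ± 0.11) and the mitophagy receptor gene BNIP3 (-0.67 ± 0.07). Among 10 p53 targets, 4 were higher (40%), 3 were lower (30%) and 3 did not pass. The kinase PLK3 (1.57 ± 0.08) led the higher ones and the pro-apoptotic BAX (-0.90 ± 0.13) the lower ones. The calls of the p53 targets BBC3 and TP53I3 were lost in several leave-one-out fits.

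Most proliferation genes measured were lower with BRD8518. Of 24 DNA replication and licensing genes, 20 were lower, 0 were higher and 4 did not pass (median -0.60). Of 28 mitosis genes, 21 were lower, 0 were higher and 7 did not pass (median -0.38). FEN1, the nuclease that trims Okazaki fragments, read 6.07, 6.01 and 6.04 with BRD8518, against 7.38, 7.22 and 7.16 with OSM and 7.66, 7.63 and 7.76 with DMSO. CDC6, which loads the replicative helicase, read 7.67, 7.89 and 7.81 with BRD8518, against 8.96, 8.87 and 8.89 with OSM and 9.60, 9.61 and 9.61 with DMSO. Both genes were lowest with BRD8518, intermediate with OSM and highest with DMSO, without overlap. The differences were -1.21 ± 0.10 for FEN1 and -1.12 ± 0.08 for CDC6 (limma, adjusted p = 7.7e-09 and 4.1e-10). The mitotic genes BIRC5, survivin, and AURKB, aurora kinase B, were lower, at -0.80 ± 0.10 and -0.75 ± 0.09, and were below DMSO with both agents. In these bulk samples, fewer cycling cells and less of such RNA per cell cannot be told apart.

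Among sterol genes more members were lower with BRD8518 than higher. Of 18 cholesterol synthesis and uptake genes, 11 were lower, 1 was higher and 6 did not pass (median -0.39), and the higher one, SREBF2, lost its call in 3 leave-one-out fits. ACAT2, which makes the acetoacetyl-CoA that feeds the pathway, read 6.88, 7.08 and 7.11 with BRD8518, against 8.04, 7.89 and 8.01 with OSM and 9.27, 9.23 and 9.24 with DMSO. Both agents lay far below DMSO, at -2.22 with BRD8518 and -1.27 with OSM, and the difference was -0.96 ± 0.08 (limma, adjusted p = 2.8e-09). The isomerase IDI1 and the sterol carrier STARD4 were lower, at -0.78 ± 0.08 and -0.78 ± 0.15, and were arranged in the same way.

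Of 18 lipoprotein genes measured, 3 were lower with BRD8518 (16.7%, against 12.3% of all genes), 0 were higher and 15 did not pass (median -0.05). APOB, the structural protein of very low density lipoprotein, read 12.42, 12.50 and 12.50 with BRD8518, against 12.47, 12.57 and 12.45 with OSM and 12.46, 12.55 and 12.59 with DMSO. All 3 groups overlapped, and the difference was -0.03 ± 0.07 (95% confidence interval -0.17 to 0.11; limma, adjusted p = 0.85). MTTP, which loads lipid onto APOB, read 7.88, 7.99 and 7.88 with BRD8518, against 7.89, 7.56 and 7.63 with OSM and 9.14, 8.93 and 8.85 with DMSO. Both agents lay well below DMSO and their arrays overlapped. The difference was 0.22 ± 0.18 (interval -0.16 to 0.61; limma, adjusted p = 0.47). The interval holds 0 and also differences up to 0.61, so equal levels were not shown. APOM and APOF, minor apolipoproteins, were lower, at -0.71 ± 0.10 and -0.67 ± 0.10. The call of the lipoprotein gene LCAT was lost in several fits, among them that of the 6 compared arrays alone.

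In fatty acid and triglyceride synthesis, 5 of 26 genes were higher (19.2%), 6 were lower (23.1%) and 15 did not pass (median -0.11). The shares over all genes were 10.9% and 12.3%. The higher ones numbered 3 without BRD8518 replicate 3 or OSM replicate 3. They numbered 8 without the DMSO array at 6 h that stood apart. PNPLA3, a lipid droplet protein, was lower, at -0.82 ± 0.09, and the phosphatidate phosphatase LPIN1 was higher by 0.48 ± 0.08. Fatty acid oxidation and ketone body genes had 7 of 10 members lower and 2 higher, with 1 not past the threshold (median -0.39). CPT1A, which admits fatty acids to mitochondria, read 6.30, 6.34 and 6.13 with BRD8518, against 7.27, 7.24 and 7.16 with OSM and 6.47, 6.27 and 6.28 with DMSO. Only OSM arrays were high, and the difference was -0.97 ± 0.10 (limma, adjusted p = 2.2e-07). The acyl-CoA synthetases ACSL5 (1.01 ± 0.11) and ACSL1 (0.75 ± 0.08) were the higher members.

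Other liver functions were split gene by gene. BAAT, which conjugates bile acids with amino acids, read 7.46, 7.46 and 7.45 with BRD8518, against 6.05, 5.88 and 6.33 with OSM and 6.97, 6.93 and 7.01 with DMSO. DMSO lay between the treatments, in the reverse of the acute phase order, and the difference was 1.37 ± 0.12 (limma, adjusted p = 8.0e-09). PC, pyruvate carboxylase, was lower, at -1.02 ± 0.11, and the glucokinase regulator GCKR was higher by 0.90 ± 0.09. Of 9 detoxification enzymes measured (37 in the list), 3 were higher (33.3%, and only 1 gene without OSM replicate 3) and 3 were lower (33.3%). FMO5, a monooxygenase, was among the lower (-1.35 ± 0.11) and CES1, a carboxylesterase, among the higher (1.05 ± 0.11, and 0.88 on its other probe set). Of 11 hepatocyte transcription factors, 2 were higher (18.2%), 3 were lower (27.3%) and 6 did not pass. Over all genes 10.9% were higher and 12.3% lower. ONECUT1 was lower, at -0.88 ± 0.14 and its paralog ONECUT2 higher by 0.47 ± 0.08.

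The comparison at 1 h shows when these differences were present. In the labels, the compared 24 h arrays carry position letter A and the 1 h arrays B or C, and the letter's meaning is not given. Time and that letter cannot be told apart. At 1 h, 349 genes differed between BRD8518 and OSM, 2.34% of those tested, with 126 higher (0.847%) and 223 lower (1.5%) with BRD8518. Of these 349, 122 (35%) also differed in the same direction at 24 h, 81 (23.2%) differed in the opposite direction and 146 (41.8%) did not pass at 24 h. As shares of the 3458 genes at 24 h, the same and opposite sets were 3.53% and 2.34%. The difference between BRD8518 and OSM changed from 1 h to 24 h, by the test of that change itself, for 2163 genes (14.5%), upward for 6.54% and downward for 8%. The 1 h count was 224 without OSM replicate 3, 716 without 1 DMSO array at 6 h that stood apart, and 934 with array weights. Without that DMSO array 3448 genes changed between the times, and with array weights 3759.

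TRIB1 was among those that turned round. At 1 h it averaged 9.33 ± 0.03 with BRD8518, against 10.81 ± 0.10 with OSM (SD, n = 3 each), a difference of -1.48 ± 0.08, and at 24 h the difference was 0.64 ± 0.08. The change between the times was 2.12 ± 0.12 (limma, adjusted p = 2.9e-11). LIF turned round as well, from -0.72 ± 0.10 at 1 h, and so did the long non-coding RNA LINC-PINT, from -1.44 ± 0.16 at 1 h to 1.88 ± 0.16 at 24 h. SOCS3 was lower with BRD8518 at both times, with -4.60 ± 0.14 at 1 h, and so was LBP, with -3.60 ± 0.13 at 1 h. EGR1 averaged 11.44 ± 0.19 with BRD8518 and 11.83 ± 0.03 with OSM at 1 h, a difference of -0.39 ± 0.13 that did not pass (limma, adjusted p = 0.17).

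The largest upward differences of 24 h were not seen at 1 h. LAIR2 differed by -0.05, DUSP5 by -0.09, AXL by 0.10 and IL11 by 0.04 at 1 h, and none of these 4 passed. Likewise HOXD1 (0.01), CHST15 (-0.24) and GPR119 (-0.38) did not pass at 1 h. HP (-1.60), LRG1 (-2.17) and SOCS1 (-1.60), by contrast, were already lower with BRD8518 than with OSM at 1 h. HP then averaged 9.53 with BRD8518, 11.13 with OSM and 9.55 in the DMSO arrays of 1 h. Its BRD8518 level thus lay beside DMSO at 1 h and below DMSO at 24 h.

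**Figure D5:**
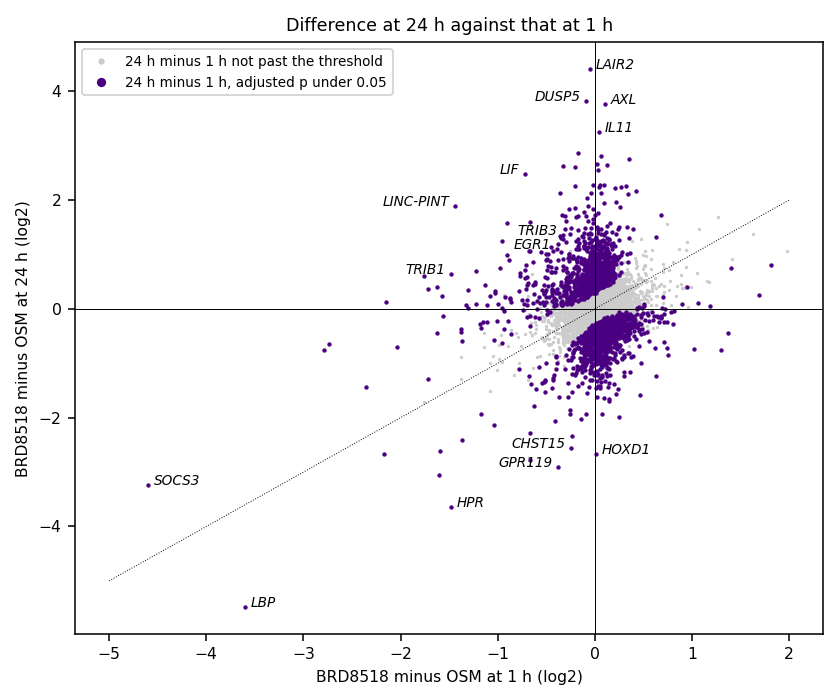
Difference between BRD8518 and OSM at 24 h (log2, vertical axis) against that at 1 h (log2, horizontal axis), 1 point per gene, with a dotted line of equal differences. The 2163 genes whose difference changed between the times are purple. LAIR2, DUSP5, AXL and IL11 stand near 0 at 1 h and high at 24 h, SOCS3 and LBP are low at both times, and TRIB1, LIF and LINC-PINT are negative at 1 h and positive at 24 h.

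Markers of other cell types were checked in the 6 arrays. Of 7 macrophage markers, CD68, a lysosomal protein also found outside macrophages, was higher by 0.86 ± 0.08 and CD14, the lipopolysaccharide co-receptor, was lower, at -0.69 ± 0.14, while CD163, MARCO, CSF1R and TYROBP did not pass and averaged 3.56 to 5.84 with BRD8518 and 3.59 to 5.86 with OSM. LYZ was past the threshold on 1 of its probe sets. Of 4 stellate cell and fibroblast markers none passed. Among 5 biliary markers the keratin KRT19 was higher by 1.03 ± 0.10, and SOX9 (-0.28 ± 0.06) and SPP1 (-0.32 ± 0.07) were lower.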

How the data were processed

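The authors deposited log2 expression values computed by RMA with oligo, per the submitters' processing notes. Tool versions and the build behind the probe sets were not given in the sources used here. Values span 53617 probe sets on 24 Affymetrix whole-transcript arrays. The platform annotation names 1 symbol for 16098 probe sets, and the other 37519 were not used. For the 779 genes with several probe sets the one brightest on average over the 24 arrays was used, which left 14884 genes. RMA gives no detection calls, and 2388 genes averaged under 4, where differences tend to be compressed. Replicates of the 24 h groups correlated at 0.995 or more over all genes, and 1 DMSO array at 6 h stood apart from its group.

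All 24 arrays were fitted together, with 1 mean for each of 8 groups, in limma 3.58.1 (R 4.3.3) with empirical Bayes moderation. Contrasts were BRD8518 minus OSM at 24 h and at 1 h, the difference of both, and each agent minus DMSO at 24 h. P values are two-sided, with Benjamini-Hochberg adjustment over 14884 genes in each contrast. The fit was tested on simulated data. Plots used Python 3.11 and matplotlib 3.10.9.

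The members and the 41 gene lists were chosen with earlier results of these data known. The lists held 919 genes, of which 553 were measured, and the list of amino acid transporters had 0 measured. Genes not measured had no probe set with a symbol in the annotation. The share measured differed between lists, for example 9 of 37 detoxification enzymes against 71 of 76 mitochondrial ribosomal protein genes. Genes named are the 15 largest differences each way at 24 h whose arrays did not overlap, a panel (TRIB1, TRIB2, TRIB3, EGR1, SOCS3, APOB and MTTP), up to 4 members of each list each way past the threshold and the 5 largest changes each way between times. List members that did not pass, the 1 h values of other named genes and the genes listed for a motif are given besides these.

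Alternatives were leaving out genes below the median level, centred arrays, repeated quantile normalization, trended and robust moderation, fits of only the compared arrays, array weights, averaged probe sets of a gene, every probe set, a fit without the 6 h DMSO array and leaving out each array in turn. The same settings for the 1 h count and the list counts, and the fit without the 6 h DMSO array for the change between times, were chosen after seeing the data.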

Additional observations from a re-analysis of the deposited data

Results flagged for a closer look

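The difference between BRD8518 and OSM was not the same at 24 h and at 1 h for 2163 genes, by the test of the change itself (limma, adjusted p under 0.05). The 5 genes with the largest change each way are picked for that size. The difference at 24 h minus that at 1 h was 4.45 for LAIR2, 3.91 for DUSP5, 3.65 for AXL, 3.32 for LINC-PINT and 3.21 for IL11. It was -2.67 for HOXD1, -2.53 for GPR119, -2.31 for CHST15, -2.23 for IFT70A and -2.15 for HPR. Among the panel genes it was 2.12 for TRIB1, 1.68 for TRIB3, 1.49 for EGR1 and 1.37 for SOCS3, whose difference was negative at both times. These 14 genes kept the call in every alternative that was run with them. IFT70A has several probe sets, and another one gave a 24 h difference of -0.52, against -1.98 for the one used. LINC-PINT likewise gave 0.50 and 1.96 on other probe sets, against 1.88.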

How the results depend on the processing

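At 24 h the count of genes past the threshold was 3279 to 4741 under the other settings that keep all compared arrays and 5286 with array weights, which raised the lower genes to 2860. Without single arrays it ran from 2741 to 3087, with 1318 to 1396 higher and 1369 to 1691 lower. Leaving out genes below the median level gave 3230. At 1 h the count was 934 with array weights (473 higher, 461 lower) and 716 without the 6 h DMSO array that stands apart (324 higher, 392 lower). Leaving out single 1 h arrays gave 224 to 296, with 67 to 114 higher and 157 to 201 lower, lowest without OSM replicate 3. Genes whose difference changed between times numbered 3759 with array weights (1613 up, 2146 down), 3448 without the 6 h DMSO array (1501 up, 1947 down), and 1811 down in a fit of the 12 arrays alone. Without single arrays they were 1744 to 2006, with 836 to 878 up and 885 to 1136 down. The causes were not tested. Over all settings the median difference ran from -0.033 to -0.012, and BRD8518 was higher for 44.3% to 50.1% of the genes past the threshold.

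Of the 194 named genes, 23 lost their call in at least 1 setting, most often without 1 array: BBC3, CIDEC, FETUB, FOS, FOXA1, GLUL, GSTA1, GSTA2, KLB, KNG1, LCAT, LYZ, MRPL33, MRPS10, MRPS35, MT2A, PCK1, PER1, PRODH, SLC51B, SREBF2, TF and TP53I3. MTTP passed with array weights. Without single arrays, APOB ran from -0.052 to 0.011 (positive without OSM replicate 2 alone), and the change between times of TRIB2 ran from -0.17 to 0.038, with 0.012, 0.038 and 0.013 without BRD8518 1 h replicate 1, OSM 1 h replicate 2 and OSM 1 h replicate 3. None of these values passed.

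No paired analysis was possible because the replicate numbers follow accession order and the labels' position codes are shared by no arrays. Arrays give no detection calls, so genes with low values, such as LAIR2 outside BRD8518, carry only what RMA assigns there.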

Other observations

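Mitochondrial ribosomal protein genes, which build the ribosome that translates the mitochondrial genome, had 25 of 71 members lower with BRD8518 than with OSM at 24 h, 4 higher and 42 not past the threshold, with a median of -0.19. The lower ones numbered 15 without OSM replicate 1 and 16 without BRD8518 replicate 3, and the higher ones 1 without BRD8518 replicate 2 or OSM replicate 3 and 2 without OSM replicate 1. The background over all genes was 12.3% lower and 10.9% higher. MRPL11 read 8.06, 8.32 and 8.15 with BRD8518, against 8.94, 8.78 and 8.77 with OSM and 9.06, 9.03 and 9.22 with DMSO, a difference of -0.66 ± 0.09. MRPS7 was lower, at -0.54 ± 0.08. MRPS30 was higher by 0.35 ± 0.08, and the other 3 higher members (MRPS10, MRPS35 and MRPL33) lost the call in leave-one-out fits.

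Extracellular matrix and adhesion genes had 5 of 12 measured members (37 in the list) higher, 2 lower and 5 not past the threshold (median 0.18). The 3 inhibitors of matrix proteases in this list went both ways. TIMP2 read 9.77, 9.88 and 9.84 with BRD8518, against 8.14, 8.23 and 8.18 with OSM and 7.86, 7.79 and 7.80 with DMSO, a difference of 1.65 ± 0.13 (limma, adjusted p = 4.4e-09). TIMP1 read 9.55, 9.72 and 9.61 with BRD8518, against 10.24, 10.08 and 10.35 with OSM and 8.36, 7.87 and 8.11 with DMSO, a difference of -0.60 ± 0.16 (limma, adjusted p = 0.0067). Both agents left TIMP1 far above DMSO. TIMP3 was higher by 0.45 ± 0.09 (limma, adjusted p = 0.00071) and averaged 10.09 with BRD8518, 9.64 with OSM and 10.35 with DMSO. The adhesion molecule L1CAM and the collagen cross-linking enzyme LOXL2 were higher by 1.24 ± 0.10 and 0.84 ± 0.11. Among alpha-arrestins, ARRDC3 was higher by 1.37 ± 0.13 and ARRDC4 lower, at -1.15 ± 0.10. The 5 metallothionein genes of the list of haem, iron and copper genes, whose products bind zinc and copper and whose sequences are much alike, also went both ways. MT1E (0.82 ± 0.14), MT1G (0.71 ± 0.15) and MT2A (0.44 ± 0.11) were higher, MT1X was lower (-0.89 ± 0.15) and MT1F did not pass (-0.21 ± 0.15). The MT2A call was lost in a fit of the 6 arrays alone (limma, adjusted p = 0.062).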
